A study of Rattus norvegicus with 22 samples.

Results

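The 9 genes described here, P2ry12, P2ry13, Tmem119, Cx3cr1, Gpr34, Siglec5, Rgs10, Sall1 and Olfml3, are markers of homeostatic microglia. They were taken by name from the count table. All 9 were found among the 17172 gene entries of the table, and all 9 were among the 12875 genes that passed the filter on low counts and were tested.

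Microglia are the resident macrophages of the brain. In the healthy tissue they keep a surveying state in which the processes sample the surroundings, and this state is maintained by signals such as TGF-β, CSF1 and IL-34 and by contact with neuronal fractalkine. The genes that mark the state include those of receptors for purines, lipids and fractalkine. Such marker genes are commonly lowered when microglia respond to damage or phagocytose debris. Blood-derived monocytes and neutrophils, which enter injured brain, share general myeloid genes with microglia but express some of these markers, such as Tmem119, weakly or not at all.

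Transcripts were sequenced from whole tissue of the right hippocampus, on the injured side, in adult male Sprague-Dawley rats after lateral fluid percussion, a model of traumatic brain injury (TBI) in which a pressure pulse is delivered to the closed dura through a craniectomy. All rats had the same anesthesia, craniectomy and injury hub, and sham rats did not receive the pulse. Tissue was taken on day 1 from 2 sham and 4 TBI rats, and on day 14 from 4 rats of either kind. p-values measure the spread between these rats. The paper corrected its expression trajectories for a batch effect, but the sample labels name no batch. Library totals were between 15065540 and 23743703 counts, and the members were counted between 39 times, for Siglec5 in a sham rat, and 2562 times, for Rgs10 in a sham rat. Values are given as CPM (the count scaled to a fixed library size after TMM normalization), with a separate value for each rat. In bulk tissue, fewer microglia and less RNA per microglial cell cannot be told apart, and RNA of other cells is counted too.

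3 libraries stood apart in genes of the choroid plexus, the ventricular tissue that adjoins the hippocampus. The 18 genes of that list summed to 12239 CPM in sham day 1 replicate 1, 2247 CPM in TBI day 14 replicate 2 and 9608 CPM in TBI day 14 replicate 3, against 179 to 352 CPM in the other 11 libraries. All 17 tested genes of the list were lower in TBI at day 1 and higher in TBI at day 14, the order that most members also took, and the main counts are given below with and without these libraries. Of the 9 members, 8 were higher in sham day 1 replicate 1 than in replicate 2, with Rgs10 as the exception. At day 14, TBI replicate 4, which was not high in choroid plexus genes, held the highest TBI value for 6 of the 9 members.

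The promoters of the members whose regulation the data bear on were read from the RefSeq table of the build GRCr8, which holds 6 of the 9 members and 300 bases for each, 250 before and 50 after the annotated start. The promoters of P2ry12, Tmem119 and Sall1 are not analysed here. P2ry13 (chr2:145622735-145623034, minus strand) and Rgs10 (chr1:192418028-192418327, minus strand) are shown because both genes were lower at day 1 and higher at day 14 past the test, and Siglec5 (chr1:102904656-102904955, plus strand) because it alone held a searched motif, marked in capitals.
P2ry13: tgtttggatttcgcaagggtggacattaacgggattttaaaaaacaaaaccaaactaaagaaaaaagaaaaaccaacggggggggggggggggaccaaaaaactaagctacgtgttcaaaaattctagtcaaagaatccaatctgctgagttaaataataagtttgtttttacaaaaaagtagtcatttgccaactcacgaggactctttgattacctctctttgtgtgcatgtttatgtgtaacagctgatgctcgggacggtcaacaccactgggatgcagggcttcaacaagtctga
Rgs10: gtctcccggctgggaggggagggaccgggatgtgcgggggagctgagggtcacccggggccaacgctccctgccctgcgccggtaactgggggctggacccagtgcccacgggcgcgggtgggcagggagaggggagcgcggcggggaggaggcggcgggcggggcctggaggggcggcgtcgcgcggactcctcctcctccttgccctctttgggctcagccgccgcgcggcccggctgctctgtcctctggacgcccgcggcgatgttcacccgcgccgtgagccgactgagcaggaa
Siglec5: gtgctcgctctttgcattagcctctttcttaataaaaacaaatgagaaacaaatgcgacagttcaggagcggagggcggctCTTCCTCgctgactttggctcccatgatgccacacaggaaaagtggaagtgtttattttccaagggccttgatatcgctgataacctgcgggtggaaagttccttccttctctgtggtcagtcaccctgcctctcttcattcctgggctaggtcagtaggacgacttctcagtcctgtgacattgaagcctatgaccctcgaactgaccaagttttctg
The letters GAGGAAG, the core recognised by the myeloid factor PU.1, were searched on both strands and occurred in 12.4% of all 33469 promoters. In Siglec5 they lay on the opposite strand, read as CTTCCTC in the printed strand, with the first base 169 bases before the start (at -169). The ETS-IRF composite GGAANNGAA, found in 9.32% of all promoters, was in none of the 6. GC content was 76.3% for Rgs10, at or above 97.7% of all promoters, and 40.7% for P2ry13, at or above 14% of them, so the promoters of both genes lay on opposite sides of the median of 51.7%. A match or its absence in this window is a description of the letters and not a binding site.

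At day 1 after TBI, 4 of the 9 homeostatic genes fell against sham, P2ry12, P2ry13, Tmem119 and Rgs10, by 1.84-fold to 3.73-fold. By day 14, 5 of the 9 had risen above sham, P2ry12, P2ry13, Cx3cr1, Rgs10 and Sall1, by 1.55-fold to 2.54-fold. P2ry12, P2ry13 and Rgs10 were called on both days, below sham at day 1 and above sham at day 14. None of the 3 was called on both days once the 3 libraries high in choroid plexus genes were left out, which leaves 1 sham rat at day 1. P2ry12 (-0.59) and P2ry13 (-0.57) then lost the call at day 1 and Rgs10 (0.64) that at day 14. Every member called at day 1 was called down and every member called at day 14 was called up (edgeR quasi-likelihood test, adjusted p under 0.05 over all tested genes). Across all tested genes, 7.93% were called down and 11.2% up at day 1, and 4.07% were called up and 0.365% down at day 14.

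**Figure D1:**
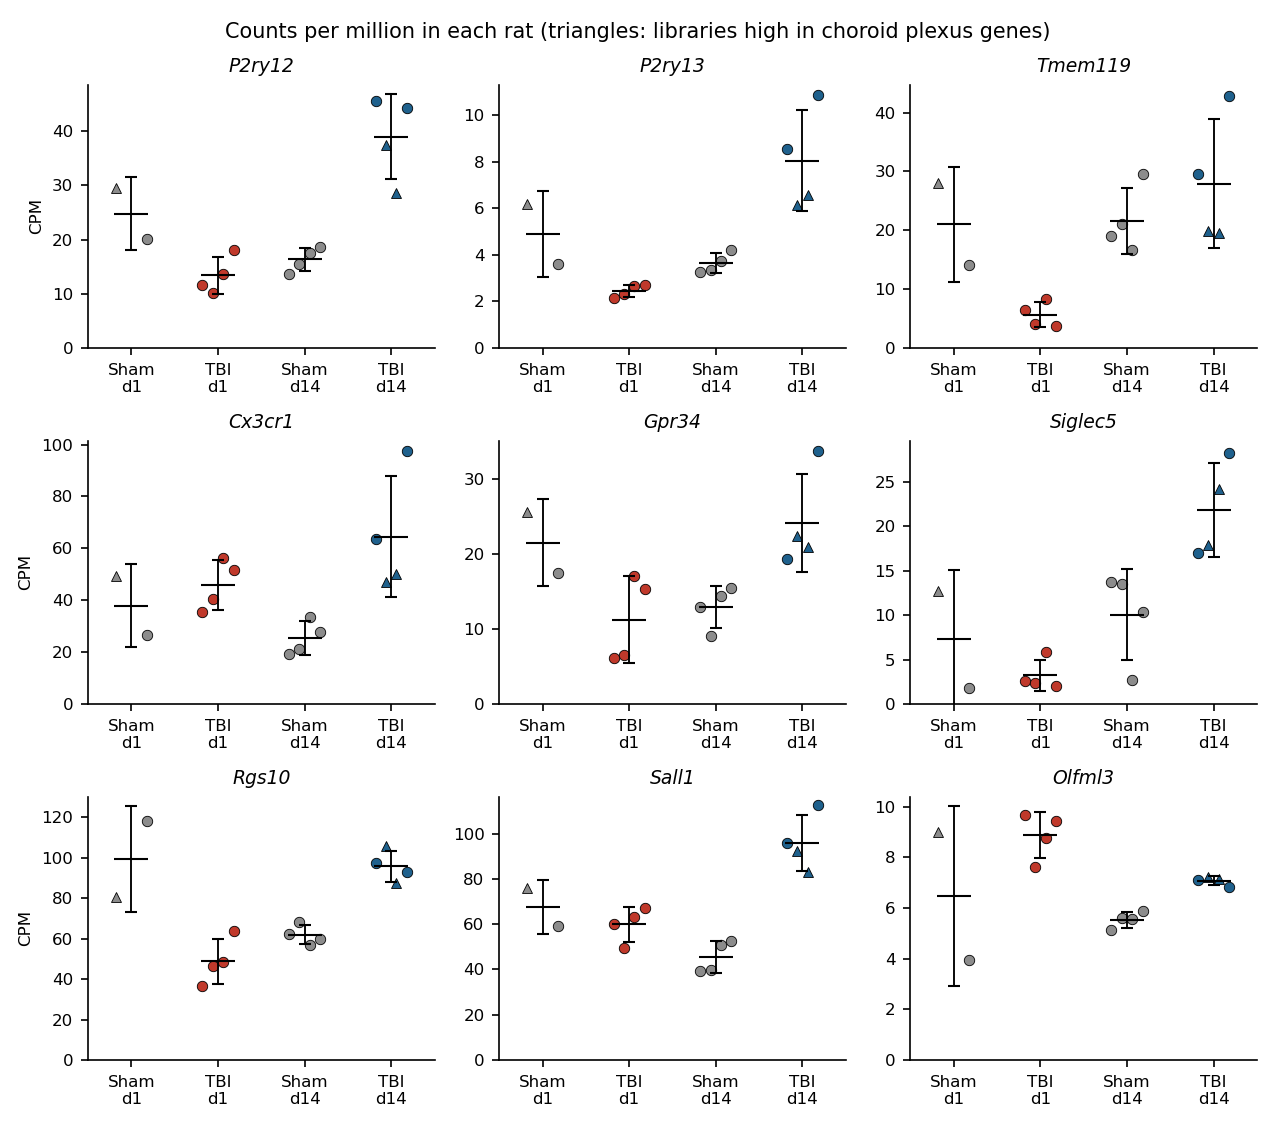
CPM (y axis, from 0) of each of the 9 genes in every rat, by group (x axis; d1, day 1; d14, day 14). Points are rats, with triangles for the 3 libraries high in choroid plexus genes; horizontal bars are group means and error bars are SDs. The 4 TBI rats at day 1 lie below both sham rats for P2ry12, P2ry13, Tmem119, Gpr34 and Rgs10, and the 4 TBI rats at day 14 lie above the 4 sham rats for all genes but Tmem119.

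The purinergic receptors P2ry12 and P2ry13 are Gi-coupled receptors for ADP. P2ry12 guides microglial processes towards nucleotides released from damaged cells. P2ry12 was at 29.5 and 20.01 CPM in the 2 sham rats at day 1 and at 11.7, 10.2, 13.7 and 18.1 CPM in the 4 TBI rats. At day 14 P2ry12 was at 13.7, 15.5, 17.5 and 18.6 CPM in sham and at 45.6, 37.4, 28.5 and 44.2 CPM in TBI. The groups did not overlap on either day, with TBI on the low side at day 1 and on the high side at day 14. P2ry12 fell 1.84-fold at day 1 (log2 fold change -0.88, SE 0.24, adjusted p = 0.019) and rose 2.38-fold at day 14 (1.25, SE 0.20, adjusted p = 0.00129). The TBI effect differed between the days by -2.14 on the log2 scale (SE 0.31, adjusted p = 0.00246).

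P2ry13 was counted at lower depth, with 41 to 206 counts per library. P2ry13 stood at 6.197 and 3.60 CPM in sham and at 2.13, 2.31, 2.66 and 2.69 CPM in TBI at day 1. At day 14 it was at 3.28, 3.36, 3.73 and 4.19 CPM in sham and at 8.56, 6.15, 6.56 and 10.9 CPM in TBI. As for P2ry12, all TBI values lay below sham at day 1 and above sham at day 14. P2ry13 fell 1.99-fold at day 1 (log2 fold change -1.0, SE 0.27, adjusted p = 0.0209) and rose 2.20-fold at day 14 (1.14, SE 0.23, adjusted p = 0.0071), and both effects differed by -2.13 (SE 0.36, adjusted p = 0.00615). The neighbouring receptor gene P2ry14, which is no member, rose 2.99-fold at day 1 (adjusted p = 0.00564) and had a log2 fold change of 0.15 at day 14 (adjusted p = 0.913).

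The day 1 calls of both receptors rested on sham day 1 replicate 1. Without it the log2 fold change was -0.58 for P2ry12 (adjusted p = 0.159) and -0.56 for P2ry13 (adjusted p = 0.23), while the differences between days were still called, at -1.83 and -1.70. With the choroid plexus score of each library as a covariate P2ry12 was at -0.90 (adjusted p = 0.042) and P2ry13 at -1.0 (adjusted p = 0.0503).

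Rgs10 encodes a regulator of G-protein signaling that speeds the shut-off of Gi-coupled receptors and limits inflammatory signaling in microglia. Rgs10 was at 80.7 and 118 CPM in sham and at 36.7, 46.3, 48.4 and 63.7 CPM in TBI at day 1. At day 14 Rgs10 was at 62.3, 68.2, 57.1 and 60.0 CPM in sham and at 97.2, 106, 87.7 and 92.9 CPM in TBI. Again TBI and sham did not overlap on either day. Rgs10 fell 2.04-fold at day 1 (log2 fold change -1.03, SE 0.19, adjusted p = 0.00178) and rose 1.55-fold at day 14 (0.63, SE 0.16, adjusted p = 0.032), a difference between days of -1.66 (SE 0.24, adjusted p = 0.00259). The day 1 call was lost without sham day 1 replicate 2 (-0.73, adjusted p = 0.0592) and was kept without replicate 1 (-1.28, adjusted p = 0.0011). The call at day 14 was lost in 7 of the 8 fits that left out 1 rat, in which the log2 fold change stayed between 0.58 and 0.69.

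Tmem119, a transmembrane protein used to tell microglia from blood-derived macrophages, showed the largest log2 fold change at day 1 among the 9 genes. Tmem119 was at 28.0 and 14.2 CPM in sham and at 6.54, 4.02, 8.25 and 3.81 CPM in TBI at day 1. At day 14 it was at 19.0, 21.1, 16.6 and 29.6 CPM in sham and at 29.5, 19.9, 19.5 and 42.8 CPM in TBI. The 4 TBI rats at day 1 were below every other rat of the study, and at day 14 sham and TBI overlapped. Tmem119 fell 3.73-fold at day 1 (log2 fold change -1.90, SE 0.37, adjusted p = 0.00299) and was not called at day 14 (0.37, 95% confidence interval -0.29 to 1.03, adjusted p = 0.748). The TBI effect differed between days by -2.27 (SE 0.49, adjusted p = 0.0199). Tmem119 was the member called down at day 1 in all 6 fits without 1 rat, with log2 fold changes from -2.31 to -1.33. The difference between days was not called with the choroid plexus covariate (-2.41, adjusted p = 0.0691). It also lost the call without sham day 1 replicate 1 (-1.70) and without the 3 libraries high in choroid plexus genes (-2.11). Both of these fits leave 1 sham rat at day 1.

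Sall1 encodes a zinc-finger transcription factor that maintains microglial identity. Sall1 was at 76.0 and 59.1 CPM in sham and at 60.1, 49.4, 63.0 and 67.3 CPM in TBI at day 1, ranges that overlapped. At day 14 Sall1 was at 39.2, 39.8, 50.8 and 52.8 CPM in sham and at 95.7, 92.4, 83.0 and 113 CPM in TBI. Every TBI rat at day 14 was above every other rat for this gene. Sall1 rose 2.1-fold at day 14 (log2 fold change 1.07, SE 0.15, adjusted p = 0.000317), with 0.98 to 1.15 in the fits without 1 rat, and was not called at day 1 (-0.17, 95% confidence interval -0.55 to 0.20, adjusted p = 0.525). The difference between days was -1.24 (SE 0.23, adjusted p = 0.0083).

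Cx3cr1 encodes the receptor for fractalkine, the ligand that neurons present to microglia. Cx3cr1 was at 49.2 and 26.6 CPM in sham and at 35.4, 40.6, 56.1 and 51.7 CPM in TBI at day 1. At day 14 it was at 19.1, 21.3, 33.5 and 27.7 CPM in sham and at 63.5, 47.0, 50.1 and 97.6 CPM in TBI. The groups overlapped at day 1 and separated at day 14, when Cx3cr1 rose 2.54-fold (log2 fold change 1.34, SE 0.26, adjusted p = 0.00601). At day 1 the log2 fold change was 0.28 (95% confidence interval -0.41 to 0.96, adjusted p = 0.575). Although the call was made at day 14 and not at day 1, the difference between days did not pass the test (-1.06, SE 0.41, adjusted p = 0.165). Cx3cl1, the gene of its ligand fractalkine, fell 1.81-fold at day 1 (log2 fold change -0.85, adjusted p = 0.00909) and was at 0.16 at day 14 (adjusted p = 0.82). The neuronal marker Rbfox3 also fell at day 1 (log2 fold change -0.88, adjusted p = 0.048) and was not called at day 14 (0.22, adjusted p = 0.839). Between the sham groups Rbfox3 was higher at day 1 (1.24, adjusted p = 0.011), and TBI day 1 against sham day 14 gave 0.36 (adjusted p = 0.246). Cx3cl1 fell with that baseline too (-1.08, adjusted p = 0.000156). The 12 genes of the neuron list, Rbfox3 included, summed to between 4591 and 8453 CPM in TBI at day 1. In sham they summed to between 10947 and 13317 CPM at day 1 and between 9035 and 12017 CPM at day 14. The part of neuronal RNA in the Cx3cl1 value was not tested.

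Gpr34, a receptor for lysophosphatidylserine, was at 25.6 and 17.5 CPM in sham and at 6.12, 6.58, 17.1 and 15.4 CPM in TBI at day 1. At day 14 Gpr34 was at 12.9, 9.13, 14.4 and 15.5 CPM in sham and at 19.4, 22.5, 21.0 and 33.8 CPM in TBI. The groups did not overlap on either day, but the TBI rats at day 1 fell into a low and a high pair. Gpr34 was not called at day 1 (log2 fold change -0.93, 95% confidence interval -1.73 to -0.13, adjusted p = 0.0923), at day 14 (0.89, 0.22 to 1.57, adjusted p = 0.171) or in the difference between days (-1.83, -2.87 to -0.78, adjusted p = 0.0527). Leaving out TBI day 1 replicate 3 brought both the day 1 value (-1.20, adjusted p = 0.0404) and the difference (-2.10, adjusted p = 0.0305) past the threshold. The difference was also called without TBI day 1 replicate 4 (-2.01, adjusted p = 0.0347), with DESeq2 (-1.83, adjusted p = 0.0079) and with no filter on low counts (-1.84, adjusted p = 0.0497). At day 14 Gpr34 was called with only the groups compared (0.93, adjusted p = 0.0136) and stayed uncalled in 10 of 11 alternative settings.

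Siglec5, a sialic-acid-binding lectin, varied widely among rats of the same group. Siglec5 was at 12.8 and 1.80 CPM in sham and at 2.65, 2.35, 5.87 and 2.01 CPM in TBI at day 1. At day 14 Siglec5 was at 13.7, 13.5, 2.70 and 10.3 CPM in sham and at 17.0, 17.9, 24.2 and 28.2 CPM in TBI. One sham rat on each day was far below the others of its group, and the groups overlapped at day 1 and not at day 14. Siglec5 was not called at day 1 (log2 fold change -1.17, 95% confidence interval -2.55 to 0.21, adjusted p = 0.217) or at day 14 (1.12, 0.00 to 2.24, adjusted p = 0.374), and its value at day 1 turned to 0.84 without sham day 1 replicate 1.

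Olfml3 encodes a secreted olfactomedin-domain protein of the extracellular matrix. Olfml3 was at 8.999 and 3.97 CPM in sham and at 9.65, 7.63, 8.76 and 9.45 CPM in TBI at day 1. At day 14 Olfml3 was at 5.11, 5.59, 5.57 and 5.88 CPM in sham and at 7.10, 7.21, 7.15 and 6.81 CPM in TBI. TBI was higher than sham in every pair of rats at day 14, and the groups overlapped at day 1. Olfml3 was the member with nearly equal log2 fold changes on both days, 0.46 at day 1 (95% confidence interval -0.09 to 1.00, adjusted p = 0.22) and 0.35 at day 14 (-0.09 to 0.79, adjusted p = 0.556), with a difference of 0.11 (-0.59 to 0.80, adjusted p = 0.889). Without sham day 1 replicate 1, Olfml3 was called up at day 1 (1.16, adjusted p = 0.00505), and without replicate 2 it was at -0.02.

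**Figure D2:**
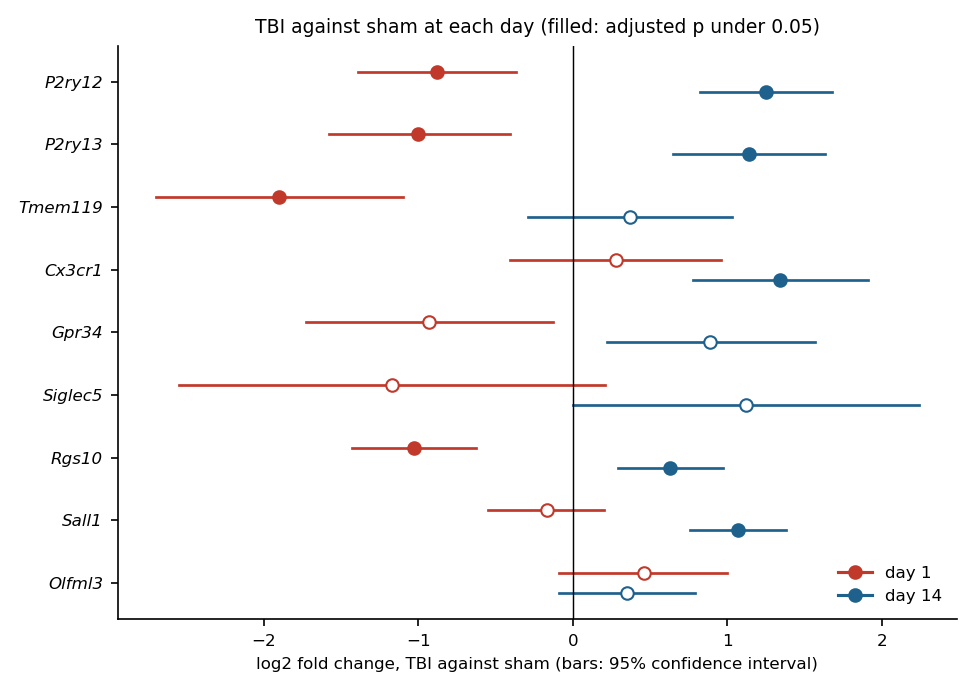
log2 fold change of TBI against sham (x axis) for each of the 9 genes (y axis) at day 1 (red) and day 14 (blue), with 95% confidence intervals as bars and filled points where the adjusted p was under 0.05. The filled points at day 1, for P2ry12, P2ry13, Tmem119 and Rgs10, are all left of 0, and the filled points at day 14, for P2ry12, P2ry13, Cx3cr1, Rgs10 and Sall1, are all right of 0.

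Over the 9 genes, log2 fold changes had a median of -0.93 on day 1 and of 1.07 on day 14, against -0.02 and -0.03 over all tested genes. In direction alone, 7 of the 9 members were lower at day 1 and higher at day 14, the exceptions being Cx3cr1 and Olfml3, which were higher on both days, and 17.1% of all tested genes took that order. Without the 3 libraries the count was 5 of 9, as Siglec5 (0.82) and Sall1 (0.01) were then higher at day 1, against 17.9% of all genes. The 5 members with no overlap between TBI and sham at day 1, P2ry12, P2ry13, Tmem119, Gpr34 and Rgs10, were all lower in TBI, and of all tested genes 14.1% were lower and 16.7% higher without overlap. At day 14, 8 members were higher in TBI without overlap, all but Tmem119, whereas 9.13% of all genes were higher and 5.86% lower without overlap. The same 5 members at day 1 and the same 8 at day 14 had no overlap without the 3 libraries, which leaves 1 sham rat at day 1, and Cx3cr1, Siglec5 and Olfml3 were then higher without overlap at day 1. The shares of all genes were then 31.5% lower and 31.3% higher at day 1, and 14.1% higher at day 14.

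Few genes of the hippocampus were called below sham at day 1 and above sham at day 14. The reverse order was not counted. Only 6 of the 12875 tested genes (0.0466%) were called down at day 1 and up at day 14, and 3 of them were P2ry12, P2ry13 and Rgs10. The other 3, which were named after their values were seen, were Mlxipl (log2 fold change -0.79 at day 1 and 1.18 at day 14), Padi2 (-1.46 and 0.74) and the choroid plexus gene Ttr (-9.56 and 7.73). Without the 3 libraries 2 genes were called in this way, neither of them a member. Without sham day 1 replicate 1 they were 3 genes, with Rgs10 as the member, and in the 14 sets without 1 rat they were 3 to 8 genes with 1 to 3 members. None of the members was called up on both days, the course of 368 genes (2.86%).

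The test of the difference itself called 5 members, P2ry12, P2ry13, Tmem119, Rgs10 and Sall1, and in each the TBI effect was lower at day 1 than at day 14. Among all genes 1.44% were called in that direction and 2.24% in the other. The median difference over the 9 members was -1.83, against 0.01 over all genes. Leaving out the 3 libraries high in choroid plexus genes leaves 1 sham rat at day 1, which is assumed to vary like the other groups. Tmem119 then lost the call in the difference between days, at -2.11. The median log2 fold change of the 9 members was then -0.57 at day 1 and 1.20 at day 14. Over all genes it was 0.04 and -0.02. Fitted on the day 1 groups alone, which leaves 6 rats to estimate the spread, Tmem119 was the member still called down at day 1 (adjusted p = 0.0303), with Rgs10 at an adjusted p of 0.053.

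Since the day 1 comparison rests on 2 sham rats, sham day 1 was compared with sham day 14. Rgs10 (log2 fold change 0.68, adjusted p = 0.0226) and Sall1 (0.56, adjusted p = 0.0366) were higher in the sham rats at day 1, where 11.3% of all genes were called up and 7.88% down, and P2ry12 was at 0.60 without a call (adjusted p = 0.0934). Neither of these calls remained without sham day 1 replicate 2 or without sham day 14 replicate 1. Against the sham rats of day 14, the TBI rats of day 1 gave values nearer to 0 for 3 of the 4 genes that fell: P2ry12 was at -0.29 (adjusted p = 0.267), P2ry13 at -0.57 (adjusted p = 0.0581) and Rgs10 at -0.34 (adjusted p = 0.0889), none of them called. Tmem119 was called down with this baseline too (-1.94, adjusted p = 0.000265), as was Siglec5 (-1.64, adjusted p = 0.0246). Cx3cr1 (0.85), Sall1 (0.39) and Olfml3 (0.68) were called up, with adjusted p of 0.0156, 0.0382 and 0.0145. Without sham day 14 replicate 1, 1 member was called up and 1 down. In this comparison, which shares its sham rats with the comparison at day 14, 25.0% of all genes were called up and 21.0% down.

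Between the TBI rats of both days, 7 members were higher at day 14, all but Cx3cr1 (0.49, adjusted p = 0.147) and Olfml3 (-0.33, adjusted p = 0.217), against 17.6% of all genes called up and 21.9% called down. Siglec5 was 6.78-fold and Tmem119 4.95-fold higher at day 14, and Sall1, at the other end, was 1.60-fold higher. The sham means do not enter this comparison, but the sham rats share in its estimate of the spread. Without the 3 libraries 8 members were higher at day 14, Cx3cr1 included, against 12.7% of all genes.

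The order of the 4 group means was TBI day 14, sham day 1, sham day 14 and TBI day 1, from high to low, for P2ry12, P2ry13 and Gpr34. In that order neighbouring groups overlapped except sham day 1 and sham day 14 for P2ry12 and Gpr34, and sham day 14 and TBI day 1 for P2ry13. Tmem119 and Siglec5 had both sham groups in the middle, with TBI day 1 apart from its neighbour for Tmem119 and TBI day 14 apart for Siglec5. For Rgs10 sham day 1 and TBI day 14 were highest and overlapped, and TBI day 14 was apart from sham day 14 below it. For Sall1 only TBI day 14 was apart from its neighbour, for Cx3cr1 all neighbours overlapped, and for Olfml3, with TBI day 1 highest, only the TBI groups were apart.

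General myeloid genes rose on both days. Of a list of 12 pan-myeloid genes, which microglia share with infiltrating leukocytes, 10 rose at day 1 and all 12 at day 14, with median log2 fold changes of 2.06 and 1.87. Their mean log2 CPM was 4.16 ± 0.47 (SD, n = 2) in sham and 6.02 ± 0.18 (n = 4) in TBI at day 1, and 4.06 ± 0.18 and 5.97 ± 0.32 (n = 4 each) at day 14. Each member was therefore also expressed relative to that mean in the same rat, as a difference of log2 CPM and without a test.

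Relative to the pan-myeloid mean, all 9 members were lower in TBI than in sham on both days. A gene with unchanged CPM is lower on this scale too, because the pan-myeloid mean rose on both days. The median log2 fold change in CPM over all tested genes was -0.02 at day 1 and -0.03 at day 14. The share of all genes below sham on this scale was not counted, so the counts of members are only a description. At day 1 the differences ran from -1.30 for Olfml3 to -3.72 for Tmem119, with -2.74 for P2ry12, -2.78 for P2ry13, -2.88 for Rgs10 and -1.53 for Cx3cr1, and TBI lay below sham without overlap for all 9. At day 14 they ran from -0.59 for Siglec5 to -1.58 for Tmem119, with -0.67 for P2ry12, -0.82 for P2ry13 and -0.83 for Sall1, and 7 of the 9 did not overlap, Cx3cr1 and Siglec5 being the exceptions. P2ry12, P2ry13, Rgs10 and Sall1, which rose in CPM at day 14, were thus below sham without overlap when set against the general myeloid genes. The same members were without overlap on each day when the 3 libraries were left out, with P2ry12 at -2.80 and -0.69 and Tmem119 at -3.57 and -1.40. Olfml3 was the one member whose relative value was lower at day 14 (-1.56) than at day 1.

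The reference chosen set the size of these values. Csf1r, the receptor for CSF1 and IL-34, rose 3.04-fold at day 14 (adjusted p = 0.000111) and was not called at day 1 (log2 fold change 0.43, adjusted p = 0.21). Against Csf1r alone P2ry12 was at -1.35 at day 1 and -0.33 at day 14, Tmem119 at -2.34 and -1.24, and Cx3cr1 at -0.15 and -0.26, whereas Olfml3 was at 0.09 at day 1. Against Aif1, the gene of the microglial stain IBA1, P2ry12 was at -2.22 at day 1 and at -0.06 at day 14, when 7 of the 9 members overlapped between TBI and sham, with Cx3cr1 at 0.02 and Siglec5 at 0.03. Rgs10 (-0.66) and Olfml3 (-0.94) were the members below sham without overlap at day 14 with each of the 3 references.

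**Figure D3:**
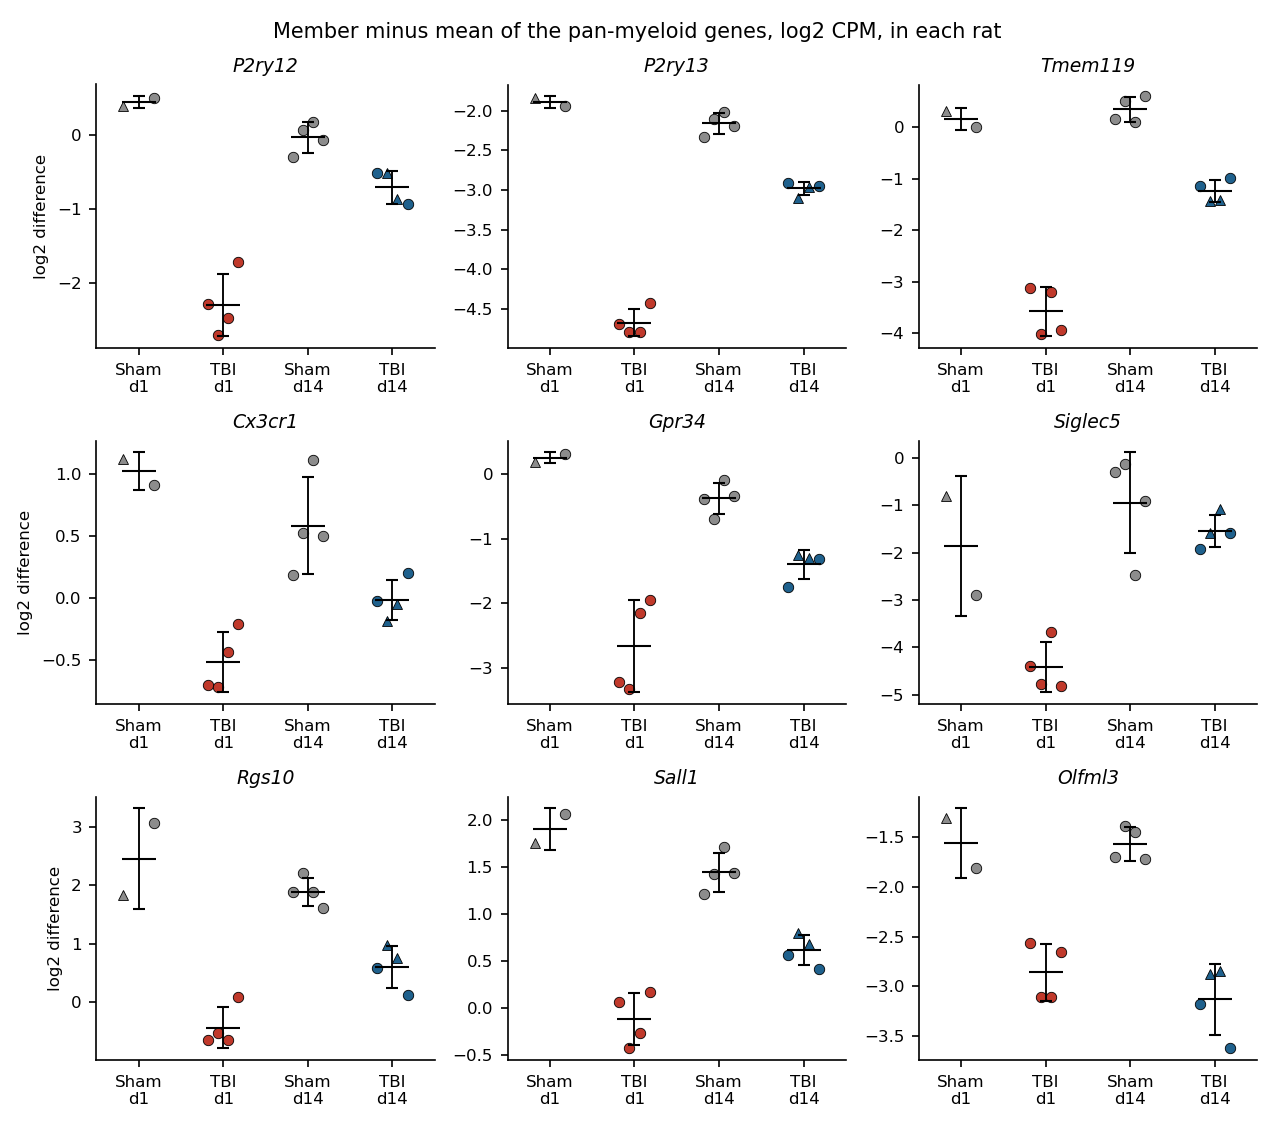
log2 CPM of each of the 9 genes minus the mean log2 CPM of 12 pan-myeloid genes in the same rat (y axis), by group (x axis; d1, day 1; d14, day 14). Points are rats, with triangles for the 3 libraries high in choroid plexus genes; horizontal bars are group means and error bars are SDs. TBI lies below sham without overlap for all 9 genes at day 1 and for 7 at day 14, all but Cx3cr1 and Siglec5. The pan-myeloid mean rose on both days, so a gene with unchanged CPM is lower on this scale too.

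Markers of infiltrating leukocytes and of perivascular macrophages rose at day 1 together with the pan-myeloid genes. The neutrophil genes S100a8 and S100a9 rose by 5.31 and 5.32 on the log2 scale at day 1 (adjusted p = 0.000833 and 7.72e-05) and were at -0.27 and 1.21 at day 14 without a call. Of the neutrophil list, 5 of 7 tested genes rose at day 1 and 1 at day 14. Its 12 genes summed to between 8.81 and 13.3 CPM in sham and between 47.4 and 102 CPM in TBI at day 1. At day 14 the sums were 9.41 to 12.8 CPM in sham and 18.2 to 31.9 CPM in TBI. The 12 measured monocyte genes summed to between 253 and 271 CPM in sham and between 836 and 1371 CPM in TBI at day 1, and to between 224 and 378 CPM in TBI at day 14. 6 of those 12 genes rose at day 1 and 2 at day 14. Of 10 perivascular macrophage genes, 6 rose at day 1 and 1 at day 14, with sums of 31.1 to 57.7 CPM in sham and 63.7 to 125 CPM in TBI at day 1. Its defining markers Cd163 and Mrc1 rose by 2.88 and 2.07 at day 1 and were at 0.12 and 0.50 at day 14. The part of these cells in the values relative to pan-myeloid genes was not tested. None of the 9 members was at 0 in any library.

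Other genes of the homeostatic microglial list were called in both directions at day 1. Of 29 tested genes, 5 rose and 2 fell at day 1, and 16 rose at day 14, with median log2 fold changes of 0.19 and 0.92. The 2 that fell were Ltc4s, an enzyme of leukotriene synthesis (log2 fold change -1.52, adjusted p = 0.0299), and Selplg, the P-selectin ligand (-1.39, adjusted p = 0.00994). Both were also called in the difference between days, at -2.68 and -1.78. Among those that rose were the UDP receptor P2ry6 (1.95) and the complement gene C1qc (1.72) at day 1, and at day 14 the lipid receptor Trem2 (2.12), P2ry6 (1.74) and C1qb (1.69). Without the 3 libraries 10 genes of the list were called up at day 1, with a median of 0.63, and 15 at day 14, and neither Ltc4s nor Selplg was called down at day 1. P2ry6 rose on both days, unlike the ADP receptors P2ry12 and P2ry13.

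Among 22 tested genes of activated microglia, 15 rose and 1 fell at day 1, and 18 rose at day 14. Spp1 rose by 10.14 at day 1 and 6.00 at day 14, the pattern receptor Clec7a by 6.65 and 5.88, the lectin Lgals3 by 6.36 and 3.82 and the lysosomal gene Cd68 by 3.85 and 4.93. The gene that fell at day 1 was Lpl, lipoprotein lipase (-1.40, adjusted p = 0.00387). In direction, 2 of these 22 genes were lower at day 1 and higher at day 14, as were 9 of the 29 other homeostatic genes and none of the 12 pan-myeloid genes, against 7 of the 9 members. All 17 choroid plexus genes took that order too, with 5 of 10 oligodendrocyte, 2 of 9 astrocyte and 1 of 12 neuron genes. Without the 3 libraries it was taken by 5 of the 9 members, 6 of the 29 other homeostatic genes, 7 of 10 oligodendrocyte genes and 2 of 16 choroid plexus genes.

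**Figure D4:**
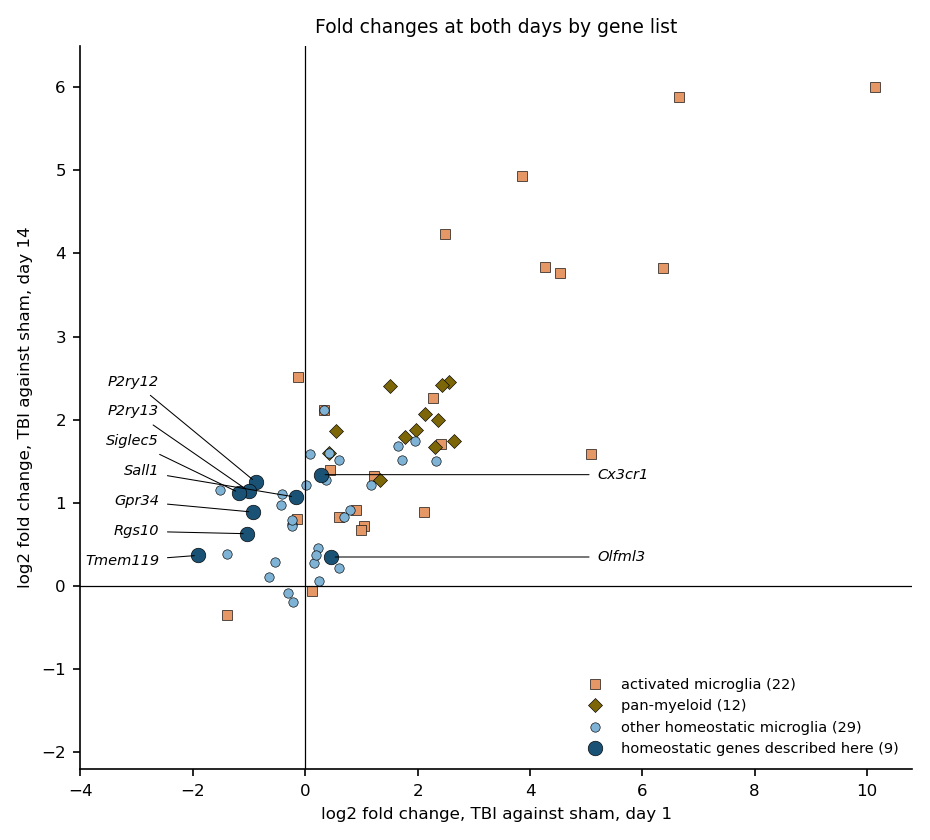
log2 fold change of TBI against sham at day 1 (x axis) and day 14 (y axis), 1 point per gene, for the 9 genes (dark blue, named), 29 other homeostatic microglial genes, 12 pan-myeloid genes and 22 genes of activated microglia; a few genes are in more than 1 list. 7 of the 9 named genes lie in the upper left, lower at day 1 and higher at day 14, where no pan-myeloid gene lies.

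Signals and regulators that maintain microglia were measured as a list of 23 tested genes, of which 9 rose and 2 fell at day 1 and 8 rose at day 14. Csf1, a ligand of Csf1r, rose on both days (log2 fold change 1.00, adjusted p = 0.00835, and 0.68, adjusted p = 0.0494), and Il34, the other ligand, was called on neither (-0.38, adjusted p = 0.0806, and -0.10, adjusted p = 0.85). Tgfb1 rose by 1.77 and 1.93 (adjusted p = 0.000745 and 8.59e-05), and Nrros, which presents TGF-β1 on microglia, by 0.65 and 0.75 (adjusted p = 0.0195 and 0.00433). Nrros was lower in sham day 1 than in sham day 14 (-0.77, adjusted p = 0.0105), and against sham day 14 its value at day 1 was -0.12 (adjusted p = 0.517). The myeloid transcription factors Spi1 (PU.1; 1.98 and 1.88) and Irf8 (1.51 and 2.41) rose on both days as well. Those that fell at day 1 were Cx3cl1 and Tgfb2, another TGF-β ligand (-0.90, adjusted p = 0.00883), which was named after its value was seen. Against sham day 14, Csf1, Tgfb1, Spi1 and Irf8 were called up at day 1 as well. Without the 3 libraries 8 genes of the list rose and 1 fell at day 1 and 9 rose at day 14.

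The 9 genes were not equally alike across the 14 rats, which share 4 groups and the choroid plexus difference, so the correlations of log2 CPM are given as a description. P2ry12 and P2ry13 had a Pearson r of 0.96 with each other, and their median r with the other members was 0.76 and 0.77. Olfml3 had a median r of -0.04, between -0.43 and 0.58. Outside the list, among 11823 genes, Slco2b1 was the most like both P2ry12 (r = 0.91) and P2ry13 (r = 0.94), followed by Cd84 and Mlxipl for P2ry12 and by Bmf and Cd4 for P2ry13. For Sall1 the most alike were Tlr3 (r = 0.93), Slc29a3 and Igf1, and for Cx3cr1 Mpeg1 (r = 0.96), MGC112715 and Ptafr. Tmem119 was most like Nipal4 (r = 0.96), Atp11a and Bcan, Gpr34 most like Vgll4 (r = 0.91), Fam83d and Paqr4, and Rgs10 most like Sall2 (r = 0.89), Vgll4 and Filip1. For Siglec5 they were Tcn2 (r = 0.91), Pltp and Hexa, and for Olfml3 Ifitm2 (r = 0.94), Ccdc102a and Eci3.

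In the newer rat annotation Med12l overlaps P2ry12 and P2ry13, and Cask overlaps Gpr34 on the opposite strand. Med12l was at -0.91 at day 1 (adjusted p = 0.0967) and -0.21 at day 14 (adjusted p = 0.886), and Cask at -0.25 (adjusted p = 0.431) and -0.18 (adjusted p = 0.801), so neither was called on either day. The libraries were stranded, but whether the counting used strand is not given in the sources used here, and reads shared with these genes cannot be told apart.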

How the data were processed

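RNA-seq libraries of ipsilateral hippocampus from 14 rats were analysed, and the H3K4me3 files of the series were not used here. The authors aligned reads with STAR 2.4.2a to rn5 and used featureCounts 1.5.0 with the UCSC annotation to count them. The deposited values are raw counts per gene, without normalization. Groups were taken from the labels. The quasi-likelihood test of edgeR 4.0.16 (R 4.3.3; two-sided) was fitted to all 14 samples with 1 mean per group, TMM normalization and edgeR's default filter. p-values of the 12875 genes kept were corrected after Benjamini and Hochberg, with a threshold of 0.05. Levels are CPM, and log2 CPM has a prior count of 2. At 15065540 to 23743703 counts per library, replicates differed beyond counting noise (chi-squared divided by its degrees of freedom was 12.8 to 165), so errors rest on the spread between rats. The comparisons of TBI with sham at each day were also run on simulated counts, and the difference between days was not. Alternatives used limma 3.58.1 (voom) and DESeq2 1.42.0, other factors, filters, baselines and sample sets.

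The members, the gene lists and the rule for named genes were chosen with earlier results of these data known. Named were all members, fixed regulators and defining markers, genes overlapping a member, the 3 largest called changes per list and direction, and the 3 genes most correlated with each member. The monocyte marker Ccr2 is not analysed here. 1 gene that the rule names is not reported here.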

Additional observations from a re-analysis of the deposited data

Results flagged for a closer look

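The effect of TBI differed between day 1 and day 14, by the test of the difference itself (edgeR, adjusted p under 0.05), for 5 of the 9 homeostatic genes. On the log2 scale, the effect at day 1 minus that at day 14 was -2.14 for P2ry12, -2.13 for P2ry13, -2.27 for Tmem119, -1.66 for Rgs10 and -1.24 for Sall1. P2ry12, P2ry13, Rgs10 and Sall1 kept this call in all 14 fits that left out 1 rat, and Tmem119 in 13 of them. Tmem119 also lost it with the choroid plexus covariate (-2.41) and without the 3 libraries high in choroid plexus genes (-2.11). The latter fit leaves 1 sham rat at day 1.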

How the results depend on the processing

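Of the member fold changes recomputed under the alternatives, 906 kept their direction and call, 54 lost a call, 21 gained one and 18 changed sign. The cause was not tested. Sign changes were in the day 1 comparison (7), the comparison of the sham groups (10) and the difference between days (1). With 1 of the 2 sham day 1 rats left out, the other is assumed to vary like the other groups. Members called down at day 1 numbered 4, but 1 with only the groups compared, 2 at an adjusted p under 0.01, 2 without the 3 libraries high in choroid plexus genes (an alternative chosen after seeing the data) and 2 to 5 with 1 rat left out. Members called up at day 1 numbered 0, but 1 (Olfml3) with the choroid plexus covariate, with all 6 sham samples as baseline and without the 3 libraries, and 0 to 1 with 1 rat left out. At day 14, 4 to 5 members were called up with 1 rat left out, and 4 to 6 in the difference between days. For TBI day 1 against sham day 14, 2 were called down, but 1 with limma-voom, 1 at 0.01 and 1 to 2 with 1 rat left out, and 3 were called up, but 0 at 0.01 and 1 to 3 with 1 rat left out. For sham day 1 against sham day 14, 2 were called up, but 1 with only the groups compared, 1 with the covariate, 0 at 0.01, 1 without the 3 libraries and 0 to 2 with 1 rat left out. Between the TBI groups 1 member was called down with the covariate, against 0.

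With all 6 sham samples as baseline, P2ry12 at day 1 (-0.51, adjusted p = 0.084) and Rgs10 at day 14 (0.37, adjusted p = 0.43) lost their calls. Signs changed at day 1 for Sall1 (0.18 with all 6 shams, 0.02 without sham day 1 replicate 1, 0.01 without the 3 libraries), Siglec5 (0.84 and 0.82 in the latter 2), Cx3cr1 (-0.10) and Olfml3 (-0.02), both without sham day 1 replicate 2, which also turned the difference between days of Olfml3 (-0.37). Between the sham groups signs changed for Tmem119 (0.03 with the replicate block, 0.06 with the covariate, 0.37 without sham day 1 replicate 2, 0.15 without sham day 14 replicate 4), Olfml3 (-0.13 with the covariate, -0.48 without sham day 1 replicate 1, -0.47 without the 3 libraries), P2ry13 (-0.02 and -0.01 in the latter 2) and Siglec5 (0.35 without sham day 1 replicate 2). With 1 rat left out, these values ran at day 1 from -0.34 to 0.02 for Sall1, from -1.99 to 0.84 for Siglec5, from -0.10 to 0.79 for Cx3cr1 and from -0.02 to 1.16 for Olfml3, and from -0.37 to 0.81 for its difference between days. Between the sham groups they ran from -0.61 to 0.37 for Tmem119, from -0.48 to 0.70 for Olfml3, from -0.02 to 0.76 for P2ry13 and from -2.48 to 0.35 for Siglec5.

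Whether same-numbered samples shared a batch is unknown (correlations of deviations 0.13 and 0.07 at day 1, -0.04 to 0.24 at day 14). With the replicate block 5 members were called down at day 1, 5 up at day 14 and 6 in the difference between days, which Gpr34 joined (-2.29, adjusted p = 0.0122).

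Over all genes, 1437 were called up and 1021 down at day 1, but 557 and 94 with only the groups compared, 788 and 299 at 0.01, 2292 and 2032 with all 6 shams, and 555 to 1677 and 367 to 1467 with 1 rat left out. At day 14 these were 524 and 47, but 903 and 205 with only the groups compared, 348 and 18 at 0.01, 119 down with DESeq2, 18 down without the 3 libraries and 21 to 46 down with 1 rat left out. For the difference between days they were 288 and 186, but 178 and 100 with limma-voom, 600 and 453 with DESeq2, 115 and 56 with the covariate, 89 and 29 at 0.01, 189 and 87 without the 3 libraries, and 126 to 430 and 78 to 300 with 1 rat left out. Against 2698 down for TBI day 1 against sham day 14, 1687 remained at 0.01. Between the sham groups they were 1450 and 1014, but 497 and 255 at 0.01, 600 down without the 3 libraries, and 673 to 1490 and 270 to 1208 with 1 rat left out. Between the TBI groups they were 2265 and 2823, but 1281 and 1879 at 0.01.

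Of the 36 values relative to Csf1r or Aif1 in place of the pan-myeloid mean, 31 moved by more than 1 SD. By Spearman correlation, the 3 genes most like a member were the same for Sall1, with 2 shared for Rgs10 and at most 1 for each other member.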
